A study of Mus musculus with 6 samples.

Results

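The comparison set wild-type regulatory T cells (Tregs) that received an agonist of the adenosine receptor A2AR against Tregs without that receptor. Its members were the 2 arrays of agonist-treated wild-type cells (WT ATL1222) and the 2 arrays of vehicle-treated knockout cells (KO vehicle), chosen by their titles, which made 4 of the 6 arrays. The remaining 2 arrays held wild-type cells with vehicle (WT vehicle). They entered the estimate of the spread and gave the level between both ends.

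All cells came from C57Bl/6 mice of 8 to 11 weeks that carried a FoxP3GFP reporter, with the genotype A2AR+/+FoxP3GFP for wild type and A2AR-/-FoxP3GFP for the knockout. They were sorted from spleen and lymph nodes as CD4+CD25+FoxP3+ cells by their GFP and cultured for 18 h. ATL1222 at 10 nM or DMSO was present from the start of the culture. The titles number the replicates as biological, but how many mice or sorts stood behind an array is not stated, so p-values measure the spread between these arrays and that spread may in part be technical. Genotype and agonist both differed between WT ATL1222 and KO vehicle, so their contributions cannot be told apart within this pair of groups. None of the 6 arrays of the series held knockout cells with the agonist.

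A2AR couples to the stimulatory G protein, which switches on adenylyl cyclase and raises cyclic AMP (cAMP). Protein kinase A then phosphorylates CREB-family factors, which act at cAMP response elements in promoters, and the response is restrained by phosphodiesterases, by regulators of G protein signalling and by a repressor form made from the Crem gene. Tregs carry enzymes that make adenosine from extracellular nucleotides, and adenosine that reaches A2AR on lymphocytes is known to dampen inflammation.

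Values were array signals that the authors had scaled to one trimmed mean per array. Median signals were 74.68 to 98.17 and arrays of 1 group correlated across probe sets with r between 0.945 and 0.956, against 0.945 to 0.954 for pairs of a KO vehicle and a WT ATL1222 array. Control probe sets at the 3' end exceeded those at the 5' end 1.21 to 1.45 times for Gapdh and 1.93 to 2.53 times for Actb. Of the genes that define the sort, Foxp3 was dim on every array, at 53.5 and 25.5 in KO vehicle and at 45.0 and 29.3 in WT ATL1222, and was not tested. Ikzf2, the Treg factor Helios, was bright, at 6810 to 8431 over the 6 arrays. In whole-array RNA, fewer cells of a type and less RNA per cell cannot be told apart.

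Among 21526 probe sets bright enough to test, 212 were higher in WT ATL1222 (0.985%) and 49 were lower (0.228%), together 261 (1.21%) at a limma adjusted p under 0.05. Here "called" means past that threshold. They named 165 genes higher and 43 lower. In order of p-value, higher genes were led by Rgs2, Crem, Odc1, Pdcd1 and Tnfaip3, and lower ones by Ms4a6c, Add3, Itga4, Ighm and Id3. The increases were also the wider ones. Their log2 fold changes ran from 0.49 to 4.38 with a median of 1.0, and 106 passed 2-fold. Decreases had a median size of 0.66 and 4 passed 2-fold. In 6 higher and 2 lower probe sets both arrays of the dimmer group were below the limit for dim probe sets, and the sizes of those changes depend on the pseudocount. Fold changes are on the scale of log2(signal + 16), which understates those of dim genes.

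The arrays of both groups did not overlap for 259 of the 261 called probe sets, against 36.1% of all probe sets tested. The 2 that overlapped were Malat1 and Neurl3, named here after their values were seen. All 261 differed in the called direction within replicate 1 and within replicate 2, with a median change of 0.95 and 0.89 on the log2 scale. The calls were made from these same arrays, so both counts follow largely from the selection and are no separate replication. Of 92 higher genes with several tested probe sets, 69 had every one of them, the called one included, on the higher side. Only 32 of the 92 had 2 or more called. Of 27 such lower genes, 23 had all probe sets on the lower side and 2 had 2 or more called. Leaving out the replicate block gave 83 called probe sets, 78 higher and 5 lower. With 1 common prior variance in place of one that follows brightness, limma called 0, while 1921 had an unadjusted p under 0.05. At that threshold 1076 would be expected if no probe set differed. The count was 142 without KO vehicle replicate 1, the lowest of the 6 counts with 1 array left out.

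**Figure D1:**
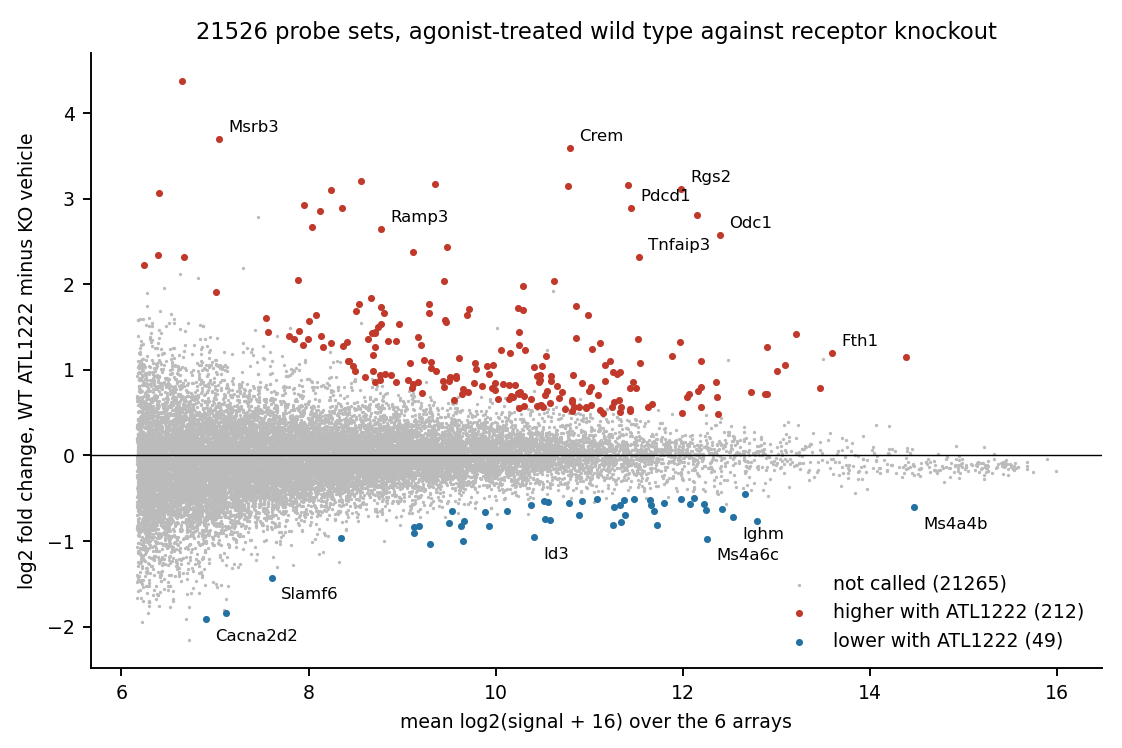
Difference between groups against brightness. The x axis is the mean log2(signal + 16) over the 6 arrays and the y axis is the log2 fold change of WT ATL1222 over KO vehicle for the 21526 probe sets tested; red points are the 212 called higher, blue points the 49 called lower and grey points the others. Crem, Rgs2 and Pdcd1 combine a bright signal with a log2 fold change near or above 3, whereas the blue points with a mean log2 above 10 lie within 1 log2 unit of 0.

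Crem and Rgs2, both cAMP feedback genes, had the widest differences among called probe sets with a mean log2 above 10. Of 26 tested members of a list of cAMP machinery and feedback, each taken by its brightest probe set, 4 were higher and 0 lower, against 1.24% of all 11983 genes higher and 0.317% lower by the same rule. The 4 were Crem, Rgs2, Rgs1 and Pde4d, and the median of the list was 0.11 beside -0.03 for all genes. This list and those below were chosen with earlier results of these data known. Crem, which encodes cAMP-responsive activators and repressors, had signals of 566 and 462 in KO vehicle, 2093 and 1273 in WT vehicle, and 6797 and 5925 in WT ATL1222. The KO arrays were the lowest and the agonist arrays the highest, with no overlap among the 3 groups. Its fold change was 12.1, or 3.59 ± 0.13 on the log2 scale (SE, n = 2 arrays a group, limma adjusted p = 4.51e-08).

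Rgs2, whose product makes G protein alpha subunits hydrolyse GTP faster, had signals of 1592 and 1285 in KO vehicle, 4051 and 3255 in WT vehicle, and 12115 and 12894 in WT ATL1222. The groups again stood apart in that order. Its log2 fold change was 3.11 ± 0.12, an 8.65-fold difference (limma adjusted p = 4.51e-08), and all 3 of its tested probe sets were called, with log2 fold changes from 3.11 to 3.17. Rgs1, of the same family, went from 788 and 660 in KO vehicle to 2481 and 2376 in WT ATL1222 (log2 1.73 ± 0.15). Pde4d, a phosphodiesterase that breaks down cAMP, went from 772 and 656 to 1518 and 1487 (log2 1.06 ± 0.13), and was not called with its probe sets averaged (log2 0.52, limma adjusted p = 0.319). The rest of the pathway was not called: the G protein gene Gnas had a log2 fold change of 0.07, the kinase subunit Prkaca -0.03, Creb1 0.03 and the phosphodiesterase Pde4b -0.06.

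**Figure D2:**
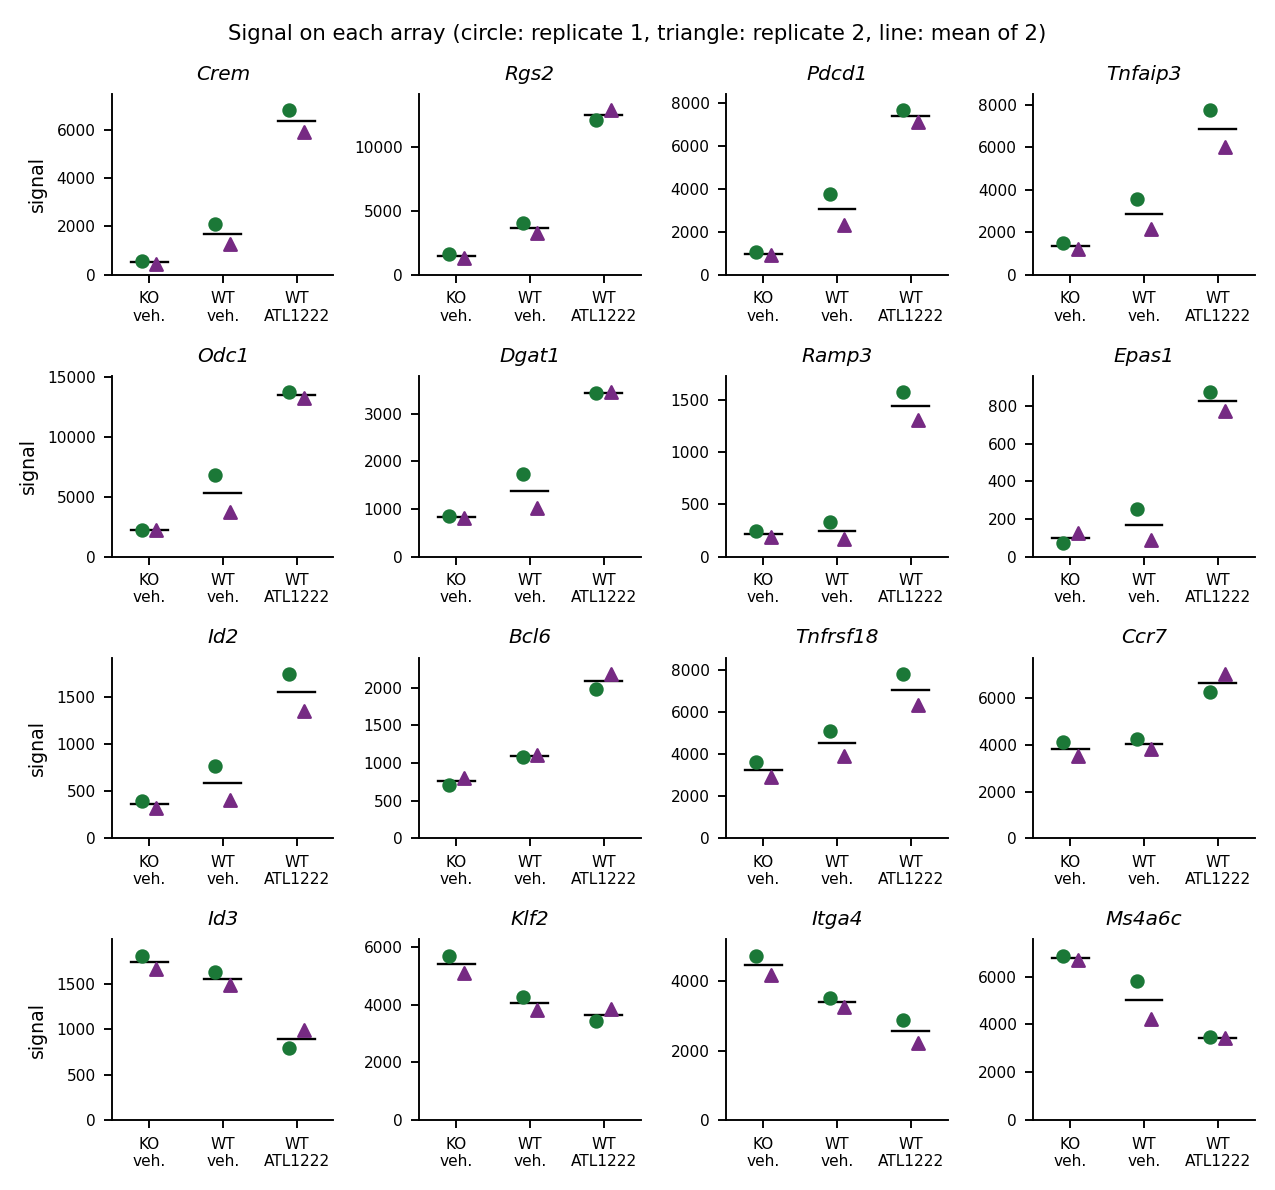
Signal of 16 genes on each array, on a linear axis that starts at 0. Circles are replicate 1, triangles replicate 2 and lines the mean of the 2 arrays of KO vehicle, WT vehicle and WT ATL1222; in every panel both agonist arrays lie on one side of both knockout arrays, above them for the 12 genes of the upper 3 rows and below them for Id3, Klf2, Itga4 and Ms4a6c.

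Promoters of some genes called higher are shown because the cAMP response element is the DNA element through which CREB acts. They were taken only from promoters with a match to this element or its short form. A match in each of them therefore follows from that choice, and the shares given after the sequences cover all genes with a promoter in the table. The promoter of Crem is not among those shown. The sequences are the 250 bases before the RefSeq start site in GRCm38.p6, written 5′ to 3′ on the gene's strand, with TGACGTCA (the full element, its own reverse complement) and TGACG or CGTCA (its short form on either strand, which the full element also holds) in capitals.
Rgs2 (chr1:144004150-144004399, minus strand): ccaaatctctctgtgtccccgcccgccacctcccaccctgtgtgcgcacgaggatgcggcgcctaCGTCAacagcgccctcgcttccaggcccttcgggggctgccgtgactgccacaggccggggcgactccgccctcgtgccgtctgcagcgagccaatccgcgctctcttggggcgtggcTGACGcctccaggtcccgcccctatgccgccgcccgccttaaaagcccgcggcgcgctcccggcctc
Dusp1 (chr17:26508473-26508722, minus strand): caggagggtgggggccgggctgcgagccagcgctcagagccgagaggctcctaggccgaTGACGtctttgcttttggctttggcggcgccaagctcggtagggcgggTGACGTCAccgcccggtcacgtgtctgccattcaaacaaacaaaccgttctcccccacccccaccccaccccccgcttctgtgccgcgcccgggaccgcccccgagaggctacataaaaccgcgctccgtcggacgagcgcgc
Nr4a2 (chr2:57124004-57124253, minus strand): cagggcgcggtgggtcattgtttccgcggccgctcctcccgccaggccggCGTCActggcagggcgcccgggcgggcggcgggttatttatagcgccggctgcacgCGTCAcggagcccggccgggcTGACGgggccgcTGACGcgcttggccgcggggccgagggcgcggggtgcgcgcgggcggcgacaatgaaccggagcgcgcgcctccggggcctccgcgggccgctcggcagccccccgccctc
Cebpb (chr2:167688665-167688914, plus strand): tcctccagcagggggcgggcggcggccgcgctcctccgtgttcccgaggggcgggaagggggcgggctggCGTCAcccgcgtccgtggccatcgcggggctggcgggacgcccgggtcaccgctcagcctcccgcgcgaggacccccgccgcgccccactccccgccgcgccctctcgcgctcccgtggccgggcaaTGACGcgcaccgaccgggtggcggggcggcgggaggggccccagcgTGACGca
Odc1 (chr12:17544623-17544872, plus strand): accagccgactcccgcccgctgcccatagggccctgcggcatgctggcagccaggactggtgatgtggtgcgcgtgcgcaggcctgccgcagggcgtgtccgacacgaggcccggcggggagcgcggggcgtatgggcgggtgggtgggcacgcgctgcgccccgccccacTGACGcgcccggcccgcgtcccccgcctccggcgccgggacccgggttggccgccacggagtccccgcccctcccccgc
In these windows the short form began 185 and 67 bases before the start of Rgs2, at 200, 144, 123 and 111 bases for Nr4a2, at 180, 53 and 7 bases for Cebpb and at 79 bases for Odc1. Dusp1 had the short form at 191 bases and the full element at 143 bases. The full element was in 2 of the 126 higher genes with a promoter in the table (1.59%), Dusp1 and Ell2, and in 0 of 35 lower genes, against 3.46% of 9691 tested genes and 2.03% of all 27025 promoters. The short form was in 48 of 126 higher genes (38.1%) and 10 of 35 lower genes (28.6%), against 34.7% of tested genes and 23% of all promoters. These windows ran from 250 bases before to 50 bases after the start site. A match in letters describes the window and shows no binding.

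Early response genes, which respond quickly to CREB and related signals, had the highest median of the 16 pathway lists. Of 28 tested members 14 were higher and 0 lower, against 1.24% and 0.317% of all genes. The list's median was 0.68 on the log2 scale. They encode AP-1 subunits (Fosl2, Fos, Junb), nuclear receptors (Nr4a2, Nr4a3), phosphatases that switch off MAP kinases (Dusp1, Dusp4, Dusp5), growth arrest genes (Gadd45a, Gadd45b), the transcription factors Cebpb and Bhlhe40, the insulin receptor adaptor Irs2, and Ier2. Fosl2 had signals of 430 and 239 in KO vehicle and 1841 and 1763 in WT ATL1222, with WT vehicle at 657 and 518. The agonist arrays were well above all others, with a log2 fold change of 2.43 ± 0.18 (limma adjusted p = 2.16e-05).

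Cebpb went from 705 and 558 in KO vehicle to 2794 and 2285 in WT ATL1222 (log2 1.98 ± 0.13, limma adjusted p = 7.4e-06). Dusp1 went from 1516 and 901 to 4040 and 3377 (log2 1.65 ± 0.13). The nuclear receptors were dimmer, with Nr4a2 at 391 and 310 against 782 and 597 by its brightest probe set (log2 0.94 ± 0.19) and Nr4a3 at 356 and 197 against 825 and 602 (log2 1.36 ± 0.19). Their relative Nr4a1 was not called, at 855 and 535 against 1012 and 872 (log2 0.46 ± 0.15, limma adjusted p = 0.229), nor was Egr1, with a log2 fold change of -0.13. Averaging the probe sets of a gene ended the call of Fosl2 (log2 1.22, adjusted p = 0.0657), Nr4a2 (0.89, 0.253), Nr4a3 (0.42, 0.779) and Gadd45b (0.54, 0.257). Some calls were lost with 1 array left out, though not with each: the largest limma adjusted p with 1 of the 4 arrays left out was 0.297 for Dusp5 (without KO vehicle replicate 2), 0.0618 for Fos (without WT ATL1222 replicate 2), 0.219 for Nr4a2 (without WT ATL1222 replicate 1) and 0.14 for Gadd45b (without KO vehicle replicate 2). Dusp4, Dusp5, Ier2, Junb, Nr4a3, Gadd45b and the brightest probe set of Nr4a2 needed the replicate block and were at 0.0566 to 0.202 without it.

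Of 14 tested co-inhibitory and co-stimulatory receptors and ligands, which tune T cell activation, 6 were higher and 0 lower. The shares of all genes were 1.24% and 0.317%. The list's median was 0.34, and 5 of the 14 had negative values. Pdcd1, the gene of the inhibitory receptor PD-1, had signals of 1066 and 902 in KO vehicle, 3777 and 2301 in WT vehicle, and 7641 and 7092 in WT ATL1222. The 3 groups did not overlap, and the agonist arrays exceeded the knockout 7.40-fold (log2 2.89 ± 0.14, limma adjusted p = 3.5e-07). Among members of the TNF receptor superfamily, Tnfrsf18 (GITR) went from 3623 and 2921 to 7823 and 6331 (log2 1.11 ± 0.10, limma adjusted p = 7.43e-05). Tnfrsf4 (OX40) went from 2120 and 1534 to 4022 and 3159 (log2 0.98 ± 0.10).

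Tnfrsf9 (4-1BB) was higher by both of its called probe sets, with log2 fold changes of 1.77 ± 0.21 and 3.10 ± 0.23, and Tnfsf8, the ligand of CD30, by 1.67 ± 0.17. Ctla4, the inhibitory receptor of the same family as CD28, went from 3432 and 3759 to 6410 and 5699 (log2 0.75 ± 0.13, limma adjusted p = 0.0134), and was not called without KO vehicle replicate 1 (log2 0.52, adjusted p = 0.126). Icos was at 2663 and 2010 against 3192 and 2280 and was not called (log2 0.22 ± 0.10, limma adjusted p = 0.478). Cd28 had a log2 fold change of -0.06 and Btla of -0.61, neither called. Ctla4 and Tnfrsf4 were at adjusted p = 0.109 and 0.0734 without the replicate block, and the other 4 kept their call.

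The Treg list had a median of 0.13. Of its 23 tested members 3 were higher and 0 lower, beside 1.24% and 0.317% of all genes. These were Klrg1, a receptor of effector Tregs (log2 1.12 ± 0.16), Nt5e, the CD73 enzyme that makes adenosine (log2 0.60 ± 0.11), and the galectin gene Lgals1 (log2 0.49 ± 0.10). Nt5e had signals of 2582 and 2852 in KO vehicle and 4419 and 3853 in WT ATL1222. Without KO vehicle replicate 1 none of the 3 was called by limma, at adjusted p = 0.0666 for Klrg1, 0.181 for Nt5e and 0.191 for Lgals1. Without WT ATL1222 replicate 1, Nt5e was at adjusted p = 0.174, and without WT ATL1222 replicate 2, Lgals1 was at adjusted p = 0.206. Averaging probe sets gave Nt5e a log2 fold change of 0.27 and Lgals1 0.42, neither called (0.673 and 0.114). The 3 were at 0.12 to 0.661 without the replicate block.

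Entpd1, the CD39 enzyme that acts before CD73, had signals of 176 and 161 against 172 and 202 (log2 0.13 ± 0.27). Il2ra, the CD25 gene, was at 613 and 468 against 468 and 416 (log2 -0.27 ± 0.17). The groups overlapped for both genes, and neither was called. Il10, an anti-inflammatory cytokine, was at 22.1 and 76.2 in KO vehicle and 260 and 209 in WT ATL1222. Those arrays did not overlap, but the difference did not pass (log2 2.07 ± 0.48, limma adjusted p = 0.077).

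NF-kB genes had 1 call. Tnfaip3, which encodes the ubiquitin-editing inhibitor A20, went from 1509 and 1209 in KO vehicle through 3540 and 2131 in WT vehicle to 7721 and 6003 in WT ATL1222. Both agonist arrays lay above the wild-type vehicle arrays and those above the knockout (log2 2.32 ± 0.12, limma adjusted p = 7.74e-07). It was the only call among 15 tested members by their brightest probe sets, beside 1.24% of all genes higher. All 15 log2 fold changes were positive (median 0.35). The subunit gene Nfkb2 was at 0.16 by its brightest probe set and 2.67 ± 0.51 by a dimmer, called one, where the KO vehicle arrays read 285 and 13.2. That call was lost without WT ATL1222 replicate 2 (log2 1.79, limma adjusted p = 0.0688) and without the replicate block (0.364).

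Transcription factors of T cell differentiation had a median of 0.09. Of 24 tested 8 were higher and 0 lower, beside 1.24% and 0.317% of all genes. Id2, an inhibitor of E proteins, went from 400 and 327 in KO vehicle to 1747 and 1356 in WT ATL1222 (log2 2.04 ± 0.17, limma adjusted p = 5.78e-05). Bcl6, a repressor known from follicular T cells, went from 708 and 802 to 1990 and 2182 (log2 1.45 ± 0.12, limma adjusted p = 5.39e-05). Both genes had agonist arrays above every other array. The cytokine-signal factors Stat3, Stat5a, Stat5b and Stat4 were higher by 1.06 ± 0.10, 0.74 ± 0.13, 0.68 ± 0.10 and 0.65 ± 0.12, the factor Maf by 1.04 ± 0.20 and the nuclear receptor Rora by 0.58 ± 0.12.

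Among these, the lineage factors Tbx21 (0.05), Gata3 (0.03) and Foxo1 (-0.01) were near 0 on the log2 scale and were not called. With 1 array left out, limma's adjusted p reached 0.228 for Maf, 0.313 for Rora and 0.137 for Stat5a, each without KO vehicle replicate 1, and 0.131 for Stat4 without KO vehicle replicate 2. Id2, Bcl6, Stat3 and Stat5b kept their call whichever array was left out. Averaging the probe sets of a gene gave Stat3 a log2 fold change of 0.63 (adjusted p = 0.0809), Maf 0.50 (0.35), Rora 0.65 (0.226) and Stat5b 0.67 (0.111). Id2, Bcl6 and Stat3 kept their calls without the replicate block, and Maf, Rora, Stat4, Stat5a and Stat5b were at 0.103 to 0.507.

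Of 11 tested genes of naive and central T cells 2 were lower and 1 higher, beside 0.317% and 1.24% of all genes. The median was -0.34, and 10 of 11 log2 fold changes were negative. Id3, an E protein inhibitor like Id2, went from 1808 and 1667 in KO vehicle to 791 and 994 in WT ATL1222, with WT vehicle at 1630 and 1486. The agonist arrays stood below all others (log2 -0.96 ± 0.14, limma adjusted p = 0.0038). Klf2, a factor that maintains lymphocyte recirculation, went from 5702 and 5121 to 3427 and 3848 (log2 -0.57 ± 0.11, limma adjusted p = 0.0263). Both calls were lost without KO vehicle replicate 1, at adjusted p = 0.0579 for Id3 and 0.191 for Klf2, and without WT ATL1222 replicate 1 Klf2 was at 0.223. Leaving out the replicate block kept the call of Id3 and not that of Klf2 (0.15).

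The exception was Ccr7, the receptor that guides T cells into lymph nodes, with 4120 and 3542 in KO vehicle, 4264 and 3815 in WT vehicle and 6288 and 7048 in WT ATL1222. The vehicle groups overlapped and the agonist arrays stood above them (log2 0.80 ± 0.11, limma adjusted p = 0.00314). Lef1, Il7r and Satb1, with log2 fold changes of -0.41, -0.40 and -0.34, were not called.

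Adhesion and homing genes were split, with 3 higher and 3 lower of 17 tested, beside 1.24% and 0.317% of all genes. Their median was -0.06. The chemokine receptors Cxcr3 (0.93 ± 0.14) and Cxcr4 (0.85 ± 0.13) and the integrin subunit Itgav (0.94 ± 0.13) were higher on the log2 scale. The integrin subunits Itga4 (-0.81 ± 0.11), Itga6 (-0.65 ± 0.10) and Itgb1 (-0.65 ± 0.14) were lower, and both alpha chains pair with the Itgb1 product. Itga4 had signals of 4737 and 4187 in KO vehicle, 3523 and 3265 in WT vehicle and 2892 and 2224 in WT ATL1222, with no overlap among the groups. Without KO vehicle replicate 1, limma gave adjusted p = 0.0739 for Cxcr3, 0.0667 for Cxcr4, 0.0911 for Itga6 and 0.191 for Itgb1, and without WT ATL1222 replicate 1 it gave 0.0601 for Itga6 and 0.11 for Itgb1. Itgb1 was not called without KO vehicle replicate 2 (0.271) or WT ATL1222 replicate 2 (0.141) either. With no replicate block all 6 missed the threshold, from 0.0566 for Itga4 to 0.463 for Cxcr4. Averaging probe sets gave Itgav a log2 fold change of 0.19 (adjusted p = 0.843), Itga4 -0.99 (0.0897) and Itgb1 -0.45 (0.681), none of them called.

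Metabolic lists mostly had 1 wide difference each. Odc1, whose enzyme limits the rate at which polyamines are made, went from 2242 and 2261 in KO vehicle through 6810 and 3757 in WT vehicle to 13756 and 13238 in WT ATL1222. The groups did not overlap (log2 2.58 ± 0.17, limma adjusted p = 8.7e-06), and it was the 1 call among 7 tested polyamine genes. Dgat1, which makes triglycerides, went from 845 and 809 to 3432 and 3455 (log2 2.04 ± 0.17, limma adjusted p = 5.34e-05), the 1 call among 16 lipid genes. Both lists had medians near 0, at 0.09 and -0.04, and the share of all genes called higher was 1.24%.

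Of 20 hypoxia and glycolysis genes 3 were higher and 0 lower, beside 1.24% and 0.317% of all genes, with a median of 0.27. Epas1, the oxygen-regulated factor HIF-2 alpha, went from 70.9 and 123 to 874 and 776 (log2 2.93 ± 0.38, limma adjusted p = 0.00198), with WT vehicle at 251 and 85.6, 1 array above both knockout arrays and 1 between them. Hif1a, bright on all arrays, was higher by 0.72 ± 0.10 and the glycolytic enzyme Aldoa by 0.56 ± 0.10. Pdk1, a kinase that restrains pyruvate entry into mitochondria, was lower by a dimmer probe set (log2 -0.79 ± 0.16) and not called by its brightest (-0.34). Aldoa was not called without KO vehicle replicate 1 (adjusted p = 0.0593) or WT ATL1222 replicate 2 (0.0569), and Pdk1 was not called without KO vehicle replicate 2 (0.236), KO vehicle replicate 1 (0.115) or WT ATL1222 replicate 1 (0.155). Averaging probe sets ended the call of Hif1a (log2 0.68, limma adjusted p = 0.136), Aldoa (0.43, 0.0897) and Pdk1 (-0.47, 0.273). With no replicate block Hif1a was at 0.0585, Pdk1 at 0.195 and Aldoa at 0.661.

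In the remaining lists T cell receptor signalling had 2 of 21 higher, beside 1.24% of all genes, the negative regulators Ptpn22 (log2 0.65 ± 0.13) and Cblb (0.52 ± 0.11), with a median of -0.11. Neither kept its call without KO vehicle replicate 1, at limma adjusted p = 0.34 and 0.198, or without WT ATL1222 replicate 2, at 0.0922 and 0.072. Cblb was also not called without KO vehicle replicate 2 (0.174) or WT ATL1222 replicate 1 (0.208), or after quantile normalization (0.0684). Single members were higher among 18 cell cycle genes (Ccnd2, 0.56 ± 0.11), 14 interferon genes (Ifngr1, 0.86 ± 0.10) and 16 stress genes (Xbp1, 0.75 ± 0.11), with list medians of -0.02, 0.02 and 0.24. Without KO vehicle replicate 1, Ccnd2 was at adjusted p = 0.147 and Xbp1 at 0.0739, and Ccnd2 was at 0.14 without KO vehicle replicate 2 and 0.171 without WT ATL1222 replicate 1. In the fit with no replicate block these 5 genes were at 0.0544 (Xbp1) to 0.371 (Ptpn22). Averaging probe sets gave 0.052 for Ptpn22, 0.175 for Cblb and 0.616 for Ccnd2. Of 12 apoptosis genes 0 were called by limma at adjusted p under 0.05, beside 1.56% of all genes in either direction.

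**Figure D3:**
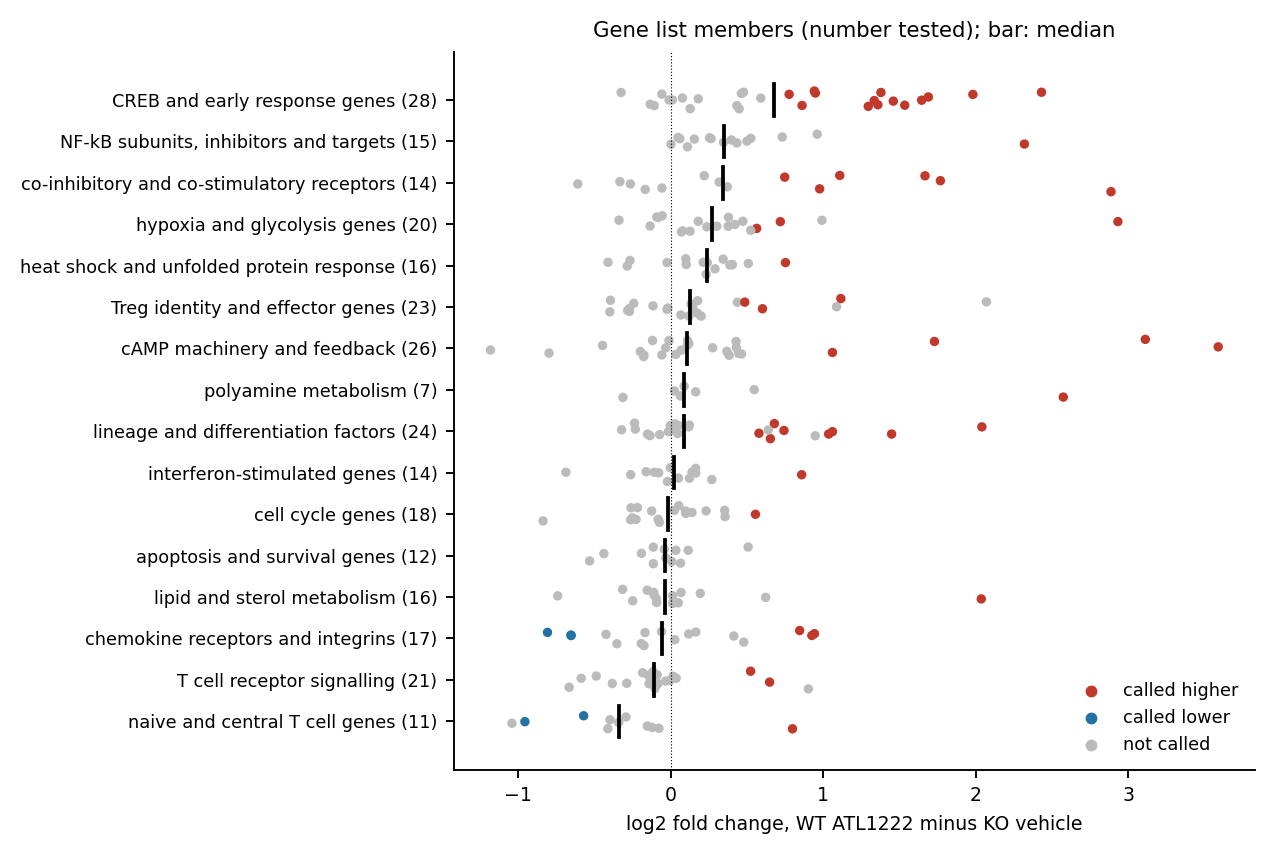
Each tested member of the 16 pathway lists at its log2 fold change of WT ATL1222 over KO vehicle by its brightest probe set, with the number tested in brackets, red for called higher, blue for called lower, grey for not called and a bar at the list's median. The early response list has the rightmost median, 0.68, and the naive and central T cell list the leftmost, -0.34, while polyamine and lipid genes each show 1 red point far from a median near 0.

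In all, the 16 lists held 50 genes higher and 5 lower of 282 tested, against 1.24% and 0.317% of all genes by their brightest probe sets. The lists were chosen with earlier results of these data known, so their counts are not free of that choice. Of all called genes, 149 were in no list. Among those was the dim gene Msrb3, which encodes a methionine sulfoxide reductase. Its signals were 36.2 and 10.8 in KO vehicle, 132 and 89.7 in WT vehicle and 474 and 465 in WT ATL1222. The knockout arrays were below the limit for dim probe sets, a signal of 55.9, so its log2 fold change depends on the pseudocount and none is given, though it was called (limma adjusted p = 0.00019). Rnf157, a RING finger gene, was higher by 2.86 ± 0.27.

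Ramp3, which encodes a partner protein of calcitonin-family receptors, went from 246 and 187 in KO vehicle and 332 and 166 in WT vehicle to 1573 and 1305 in WT ATL1222. The vehicle groups overlapped and the agonist arrays stood clear of both (log2 2.65 ± 0.20, limma adjusted p = 2.62e-05). Sgip1, Ccn4, Foxj1 and Usp54 were called higher by probe sets with both knockout arrays below the limit for dim probe sets, which passed the filter through brighter groups, so no fold is given. Their knockout signals were 10.2 to 53.0 and their agonist signals 106 to 294. Their calls were lost with 1 array left out, at limma adjusted p = 0.0593 for Sgip1 and 0.105 for Usp54 without KO vehicle replicate 1, and 0.162 for Ccn4 and 0.15 for Foxj1 without WT ATL1222 replicate 2. By its brightest probe set Sgip1 had a log2 fold change of -0.14. Without the replicate block Sgip1 was called, and Ccn4, Foxj1 and Usp54 were at 0.117 to 0.128.

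Several further genes were chosen after their values were seen. Nr3c1, the glucocorticoid receptor gene, was called by 3 probe sets, and its brightest went from 1335 and 1416 to 3436 and 3121 (log2 1.24 ± 0.12, limma adjusted p = 0.000218). Fth1, the ferritin heavy chain gene, went from 9092 and 8524 to 21458 and 19082 (log2 1.20 ± 0.11, limma adjusted p = 0.00012). In both genes no knockout array reached an agonist array. Crbn, a ubiquitin ligase adaptor, was called by all 3 of its tested probe sets, with log2 fold changes from 0.83 to 1.70. Other genes of this kind were Abcb1a, a drug efflux pump (1.56 ± 0.19), Penk, the enkephalin precursor gene (1.54 ± 0.16), and Creb3l2, a CREB-related factor (1.44 ± 0.19). Cd86, a ligand of CTLA-4 and CD28, was higher by 1.33 ± 0.26 and was not called without KO vehicle replicate 2 (adjusted p = 0.242) or WT ATL1222 replicate 2 (0.267). Without the replicate block Cd86 (0.155) and Penk (0.0723) were not called.

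Lower genes were fewer and changed less. Ms4a6c, a membrane-spanning 4-domain family gene, went from 6873 and 6704 in KO vehicle through 5810 and 4235 in WT vehicle to 3474 and 3434 in WT ATL1222, with no overlap among the groups (log2 -0.97 ± 0.12, limma adjusted p = 0.00134). Its relative Ms4a4b was among the brightest probe sets and went from 25086 and 29949 to 17717 and 18310 (log2 -0.61 ± 0.10, limma adjusted p = 0.00882). Other lower genes were the adducin genes Add3 (-0.81 ± 0.10) and Add1 (-0.52 ± 0.11). Lower too were Actn1, an actin crosslinker (-0.58 ± 0.12), and Lsp1, an actin-binding protein gene (-0.58 ± 0.10). Ms4a4b, Add1, Actn1 and Lsp1 were chosen after their values were seen. Add3 kept its call whichever array was left out. Without KO vehicle replicate 1, limma's adjusted p was 0.28 for Add1, 0.324 for Actn1 and 0.126 for Lsp1, and without WT ATL1222 replicate 1 it was 0.222, 0.142 and 0.0576. Without WT ATL1222 replicate 2 Ms4a4b was at 0.0852. Without the replicate block Ms4a6c and Add3 kept their calls, and Ms4a4b, Add1, Actn1 and Lsp1 were at 0.111 to 0.23. Ms4a6c was not called with its probe sets averaged (log2 -0.49, limma adjusted p = 0.0809), its other probe set being at -0.02, nor were Ms4a4b (-0.36, 0.428), Add1 (-0.63, 0.0778) and Actn1 (-0.19, 0.778).

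The widest fitted decreases were in dim probe sets. Cacna2d2, a calcium channel subunit gene, went from 166 and 155 to 15.1 and 54.0, and Ptdss2, a phosphatidylserine synthase gene, from 160 and 285 to 44.2 and 52.7. In both genes the agonist arrays were below the limit for dim probe sets, so no fold is given. Slamf6, a receptor of the SLAM family, went from 288 and 282 to 77.7 and 118 (log2 -1.43 ± 0.29). All 3 lost their call without KO vehicle replicate 1, at limma adjusted p = 0.401, 0.147 and 0.404, as they did without KO vehicle replicate 2, at 0.0824, 0.177 and 0.053, and without the replicate block, at 0.135, 0.183 and 0.158. The brightest probe set of Ptdss2 was at 0.33 and that of Slamf6 at -0.43. Capn3, H2-Ob, Itih5, Tsks, Ccdc126 and Prg4 had log2 fold changes from -1.04 to -0.82, and each lost its call without KO vehicle replicate 1, at adjusted p from 0.0701 to 0.407.

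Ighm, the immunoglobulin mu heavy chain gene, is a B cell marker. It was the 1 call among 6 tested B cell markers, beside 0.317% of all genes lower. Its probe set read 7149 and 6855 in KO vehicle, 7539 and 6395 in WT vehicle and 4198 and 4277 in WT ATL1222, so the agonist arrays stood below the others (log2 -0.72 ± 0.10, limma adjusted p = 0.00312). Its other 4 tested probe sets had log2 fold changes from -0.38 to 0.02 and were not called, and averaging all probe sets annotated to the gene gave 0.01. The remaining B cell markers summed to 829 and 886 in KO vehicle and 906 and 954 in WT ATL1222. The myeloid, dendritic, CD8 T and NK, and stromal marker lists had 0 called of 3, 3, 6 and 4 tested by limma. The erythroid list had 0 tested, and the share of all genes called in either direction was 1.56%.

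Where vehicle-treated wild-type cells lay between both ends was read from the WT vehicle arrays. These arrays were on neither side of the call but entered its spread and the filter on dim probe sets. Placed on a log2 scale from 0 at KO vehicle to 1 at WT ATL1222, their mean had a median position of 0.37 over the 212 higher probe sets, with quartiles of 0.25 and 0.47, and was nearer KO vehicle for 172 of them. For the 49 lower probe sets the median was 0.46, with quartiles of 0.36 and 0.56, and 30 were nearer KO vehicle. The mean lay between both ends for 202 of 212 and 48 of 49, against 38.9% of all probe sets tested, where the ends themselves are mostly close together. Both WT vehicle arrays lay between for 109 and 33. The ends are the arrays on which the calls were made, so these counts follow in part from selecting ends that lie apart.

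**Figure D4:**
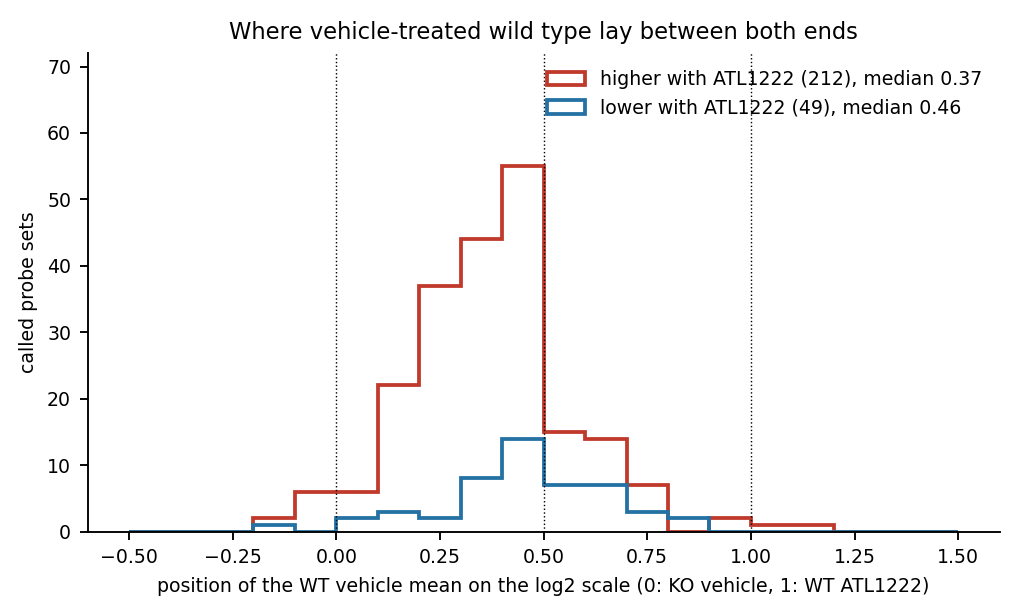
Position of the WT vehicle mean for each called probe set on the log2 scale, with KO vehicle at 0 and WT ATL1222 at 1 (dotted lines at both ends and midway), as counts of probe sets in bins of equal width. Both the 212 higher (red, median 0.37) and the 49 lower probe sets (blue, median 0.46) peak just on the KO vehicle side of the midpoint.

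The distance of WT vehicle from the midpoint was tested as a contrast of its own. Of 21526 probe sets 0 passed (0%), the smallest limma adjusted p being 0.378, and 1004 had an unadjusted p under 0.05 (4.66%). Among higher probe sets 59 had an unadjusted p under 0.05 (27.8%), 55 of them nearer KO vehicle, and among lower ones 6 (12.2%), 5 of them nearer KO vehicle. Called probe sets were selected in part for a small estimated spread, which this contrast shares, so these percentages are not comparable with the 4.66%. Leaving out 1 array gave 0 to 4 calls. The smallest p was that of Ramp3 (limma, unadjusted p = 1.76e-05, adjusted p = 0.378), where WT vehicle exceeded KO vehicle by 0.13 ± 0.20 and WT ATL1222 exceeded WT vehicle by 2.53 ± 0.20. Ccr7 and Ighm had the same shape, with 0.08 ± 0.11 and -0.01 ± 0.10 from KO vehicle to WT vehicle and 0.72 ± 0.11 and -0.71 ± 0.10 from WT vehicle to WT ATL1222.

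In other genes most of the difference lay between the genotypes. The brightest probe set of Gadd45b was at 579 and 511 in KO vehicle, 926 and 967 in WT vehicle and 958 and 929 in WT ATL1222, a log2 difference of 0.78 ± 0.14 between genotypes under vehicle that was not called (limma adjusted p = 0.162) and close to 0 with the agonist (SE 0.14). Irak1, a kinase of Toll-like receptor signalling, rose by its brightest probe set by 0.99 ± 0.13 from KO vehicle to WT vehicle (limma adjusted p = 0.0174) and had -0.15 ± 0.13 with the agonist. Its call between KO vehicle and WT ATL1222 was lost without KO vehicle replicate 2 (adjusted p = 0.0702) and without the replicate block (0.539). Its other 3 tested probe sets were not called, at -0.25 to 0.25, and averaging gave 0.25 (adjusted p = 0.502). Between these shapes, by their brightest probe sets, Rgs2 had 1.33 ± 0.12 and 1.78 ± 0.12, and Crem 1.64 and 1.95. The dimmer probe sets of Rgs2 had a smaller first step, with 1.14 and 2.03, and 1.07 and 2.08. Both had WT vehicle nearer KO vehicle and were among those with the smallest p against the midpoint. Neither passed there (limma, unadjusted p = 2.68e-04 and 2.95e-04, adjusted p = 0.839 for each). The steps share the WT vehicle arrays and are set side by side only. Over all probe sets the agonist step had 77 calls (0.358%) and the genotype step 12 (0.0557%).

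Among the 10 probe sets with the smallest p against the midpoint, some had WT vehicle outside both ends. WT vehicle was highest for Cd84 (1930 and 1640 against 1277 and 1183 in KO vehicle and 1350 and 1271 in WT ATL1222), Rps27 and Cyp20a1, each by its brightest probe set. Dim probe sets of Laptm5 and Srsf2 read highest and lowest in WT vehicle, but the brightest ones did not, at 11059 and 11475 against 10928 and 12474 in KO vehicle for Laptm5 and at 3928 and 3646 against 3997 and 3632 in WT ATL1222 for Srsf2. The brightest probe set of Ap3b1 had WT vehicle below KO vehicle, at 1171 and 1477 against 1535 and 1575. Its other probe set had WT vehicle at 676 and 1367 against 565 and 1121 and was called between KO vehicle and WT ATL1222 (log2 1.20 ± 0.17, limma adjusted p = 0.00383). None of these passed limma's adjusted threshold against the midpoint.

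By chromosome, 0.554% to 2.52% of tested genes were called on the autosomes and X. Chromosome 10, which carries the receptor locus, had 9 of 596 called (1.51%), all higher, among them Tnfaip3, Msrb3, Ifngr1 and Gadd45b. Gene distances from the deleted locus were not examined.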

How the data were processed

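Expression was measured on 6 arrays, 2 per group, from 1 µg of total RNA each. The deposited intensities, linear signals of 45101 probe sets, were made by the authors with GCOS, per the submitters' processing notes. The sources used here do not give its version or summarization method, no detection calls were used, and each array already had a trimmed mean of 250.0, which was kept. After 64 control probe sets, 34945 probe sets had 1 platform symbol, 932 had several (tested, not named) and 9160 had none and were left out. The dimmest 40% by mean log2(signal + 16) were left out, which kept 21526 of 35877. Probe sets of the _x_at, _s_at and _a_at kinds can match other transcripts.

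All 6 arrays were fitted with limma 3.58.1 in R 4.3.3, with replicate number as a block, a mean-variance trend and Benjamini-Hochberg adjustment over all probe sets tested, at 0.05. The block follows the rule of the comparison. Differences of replicate 1 and 2 correlated between groups with r from 0.165 to 0.254 across probe sets. In each group the replicate 1 array also had the lower median signal and the higher Lys, Phe, Thr and Dap spike controls. Lys read 16763 to 20273 on replicate 1 arrays against 8727 to 10646 on replicate 2 arrays. What the arrays of 1 replicate number share was not tested, so these values do not show that the numbers pair mice or sorts. The number of arrays limits the precision: residual df were 2, the median SE was 0.255 and an exact two-sided test of 2 against 2 cannot go below 0.33.

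Named were the 20 higher and 15 lower genes with the largest changes and no overlap, up to 4 called members a list, a set of key genes, and the 5 in each direction with the smallest p against the midpoint. Not every gene so named is described. The members, 16 pathway and 7 marker lists and key genes were chosen with earlier results of these data known. Symbols and promoters are from RefSeq tables of GRCm38.p6, and no genome was used. The receptor's own gene is not reported here. Alternatives covered the block, pseudocount, dim filter, variance trend, normalization, probe set choice, the arrays fitted and each array left out.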

Additional observations from a re-analysis of the deposited data

How the results depend on the processing

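The counts were 261 called, 212 higher and 49 lower, with 55 list members called. Without the replicate block they were 83, 78, 5 and 24, and all 83 were among the 261. The block changes which differences pass, not their sizes. With 1 common prior variance in place of the trend, 0 probe sets and 0 list members were called by limma. An unadjusted p under 0.05 was reached by 1921 probe sets, beside 1076 expected if none differed. Averaging the probe sets of a gene gave 123, 97 and 26. The lower count alone moved to 32 with no filter on dim probe sets and to 77 after quantile normalization. With each array left out in turn the counts ran from 142 to 347 called, from 122 to 277 higher, from 20 to 92 lower and from 35 to 59 list members; the lowest were all without KO vehicle replicate 1 and the 92 without WT ATL1222 replicate 2. Against the midpoint 0 to 4 probe sets were called. Other pseudocounts, filters, cyclic loess, the brightest probe set per gene and a fit of the 4 arrays alone gave 240 to 351 called, or 216 with no filter. Signs turned for Sgip1 (-0.14) and Ptdss2 (0.33) with the brightest probe set and for Ighm (0.01) with averaged probe sets. Of 99 named called probe sets 32 passed under every alternative but the common variance. The cause of these shifts was not tested. Dim probe sets, with signals near 55.9, have the widest errors, and 2 arrays a group limit all of these values.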
